A study of Mus musculus with 16 samples.

Results

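Before any drug was given, B16F10 melanomas grown in obese hosts were compared with the same cells grown in lean hosts, across the genes that had at least 1 read in each of 8 tumors. Of the 45777 genes in the deposited table, 16913 met that rule and were tested. The lean hosts were C57BL/6J mice and the obese hosts C57BL/6J-ob/ob mice, with 4 tumors each, and neither group had received etoposide (ETS). Both groups are labeled as controls, and the labels do not say whether a vehicle was given. All mice were injected subcutaneously in the flank at 6 weeks of age with B16F10, a single melanoma line that came from C57BL/6 mice. RNA came from whole tumor tissue, so every value is a sum over melanoma cells and host cells, and fewer cells of a type cannot be told apart from less RNA per cell. The labels give no litter, batch or day, and nothing states how the tumors of a group relate to single mice, so p-values measure the spread between these samples only. As a model, ob/ob mice lack functional leptin from birth, so obesity and leptin deficiency cannot be told apart here.

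Melanoma cells and the cells around them respond to interferon-gamma, which T and NK cells release. Its receptor signals through the Jak kinases, and factors such as Irf1 then raise antiviral genes, GTPases that attack intracellular pathogens, chemokines that draw T cells, and the machinery that shows peptides on MHC molecules. Hypoxia acts on tumors through another route, in which the factor Hif1a is kept from decay and raises genes of vessel growth and glycolysis.

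Library totals ranged from 59466055 to 61391684 counts in lean tumors and from 47199949 to 57245560 in obese tumors. The largest axis of variation between libraries (66.5% of the variance of log2 CPM, where CPM is counts scaled to a common library size) set the hosts apart, from 45.0 to 71.6 in lean and from -78.4 to -30.9 in obese tumors. Obese tumor 2 lay nearest to the lean tumors on this axis. The biological coefficient of variation was 0.217. Obese tumor 4 held far more globin RNA than the other tumors, obese tumor 2 more RNA of fat cells, and lean tumor 2 more RNA of skeletal muscle, and results that rest on these tumors are also given without them.

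The difference between hosts was broad. Of the 16913 genes, 4399 (26.0%) differed (adjusted p below 0.05, edgeR), of which 1972 (11.7%) were higher and 2427 (14.3%) lower in obese tumors. In 2326 genes (13.8%) all 4 obese tumors lay above all 4 lean tumors, and in 2509 (14.8%) all lay below. Leaving out obese tumor 4 lowered the count of higher genes to 1247, and leaving out lean tumor 4 lowered it to 1263. The large differences leaned one way. At 4-fold or more, 101 of these genes were higher and 665 lower in obese tumors; at 16-fold or more, 3 were higher and 160 lower; and at 32-fold or more, 0 were higher and 58 lower. With limits of 2-fold and an unadjusted p under 0.05, 2051 genes differed, 622 higher and 1429 lower. An alternative used TPM values (scaled by gene length and depth). With limma on log2(TPM + 1) in place of edgeR on scaled counts, the median log2 fold change over all genes moved by -0.11. Of the called genes 32.4% were then higher in obese tumors, against 44.8% with edgeR on scaled counts. The test and the scaling changed together, so the shift cannot be credited to either.

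**Figure D1:**
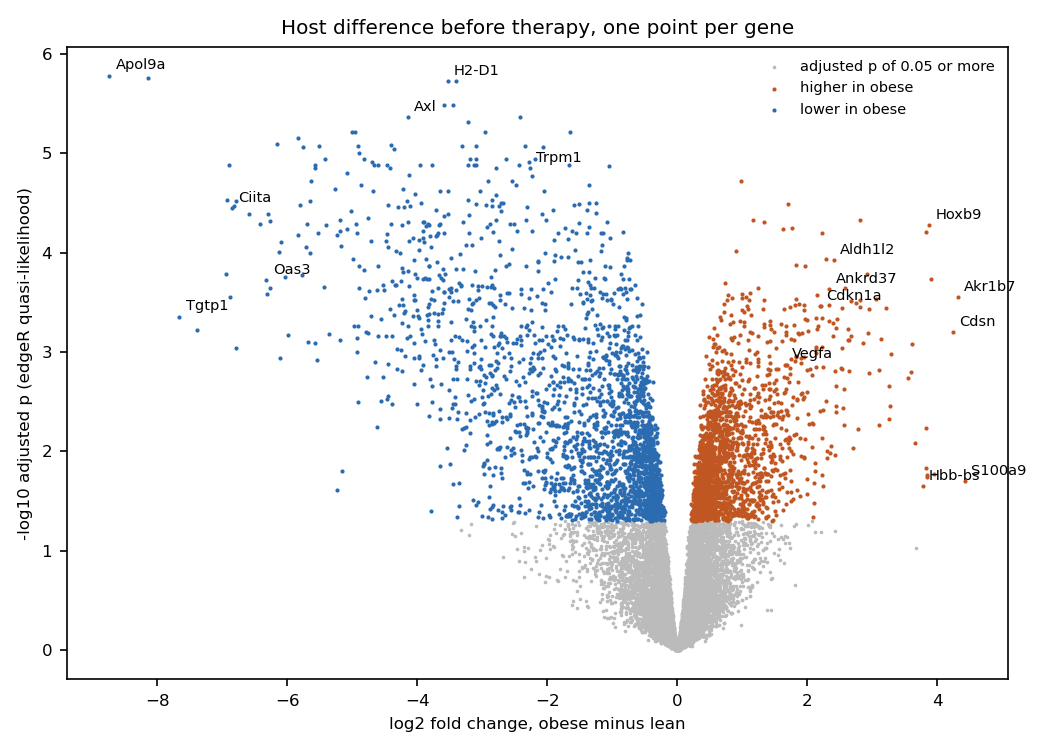
Each point is 1 of the 16913 genes, with the log2 fold change (obese minus lean) on the x axis and -log10 of the adjusted p on the y axis; orange genes were higher and blue genes lower in obese tumors at an adjusted p under 0.05. The blue arm reaches a log2 fold change of -8.74 (Apol9a), whereas the orange arm ends at 4.43 (S100a9).

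Genes of the interferon-gamma pathway were lower in obese tumors. Ifng, the ligand, was counted 83, 176, 65 and 147 times in lean tumors 1 to 4 and 0, 4, 0 and 0 times in obese tumors 1 to 4. It has counts of 0, so it was not among the tested genes; with no exclusion of zero counts its adjusted p was 0.00117 (edgeR). Of the type I and type III interferons listed, Ifnb1 had 4 counts in a single lean tumor and Ifna2, Ifna4, Ifnl2 and Ifnl3 had 0 in all 8 tumors, where 3 counts per library would be the limit that a count of 0 allows.

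The receptor chains differed little in size. Ifngr1, the ligand-binding chain, was at 36.3, 42.4, 30.6 and 35.6 CPM in lean and 28.4, 30.8, 28.5 and 27.8 CPM in obese tumors (log2 fold change -0.33, SE 0.10, adjusted p = 0.0438, edgeR). The groups overlapped by the lowest lean and the highest obese tumor, and the call was lost in 9 of 20 alternatives. Ifngr2 fell by 0.28 on the log2 scale (adjusted p = 0.0191, lost in 4 of 20 alternatives), Ifnar1 by 0.41 (adjusted p = 0.00663) and Ifnar2 by 0.80 (adjusted p = 0.00023).

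Further down, the differences grew. Irf8, a transcription factor that interferon-gamma raises, was at 76.2, 87.2, 89.8 and 93.1 CPM in lean tumors and at 2.95, 5.03, 2.75 and 1.62 CPM in obese tumors (log2 fold change -4.81, SE 0.29, adjusted p = 1.15e-05, edgeR). Every obese tumor lay below every lean tumor. The factor Irf7 (-4.53, adjusted p = 0.000212) was lower too, as were the feedback inhibitors Socs1 (-4.94, adjusted p = 5.13e-05) and Usp18 (-4.14, adjusted p = 4.88e-05). Of the 17 tested genes of receptors and Jak-Stat signaling, 16 were lower and 0 higher (14.3% and 11.7% of all tested genes were), and the median log2 fold change was -1.56.

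The interferon-induced GTPases held many of the largest differences. They comprise the immunity-related GTPases and the guanylate-binding proteins, which break open the vacuoles of intracellular pathogens. Each of the 16 tested members was lower in obese tumors (14.3% of all tested genes were). Their log2 fold changes ran from -7.66 to -2.77 around a median of -5.96, and no member overlapped between hosts (14.8% of all tested genes lay apart in this direction). The 6 members with a count of 0 in some tumor were each lower as well with no exclusion of zero counts, where 9.31% of genes were called lower. Gbp4, for example, was counted 10345, 30053, 24700 and 26491 times in lean tumors and 50, 87, 21 and 0 times in obese tumors.

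Tgtp1 (gene ID 21822, GRCm38.p6, chromosome 11 from 48985329 to 48992246) was at 464, 878, 704 and 799 CPM in lean tumors. In obese tumors it was at 6.90, 6.48, 0.518 and 0.316 CPM (log2 fold change -7.66, SE 0.93, adjusted p = 0.000442, edgeR). Every obese tumor lay below every lean tumor, and obese tumors 1 and 2 lay well above obese tumors 3 and 4. The same order was seen in 15 of the 16 GTPases, where obese tumors 1 and 2 both exceeded tumors 3 and 4, and within the lean tumors, tumor 2 was the highest in 14 and tumor 1 the lowest in 15. Tgtp2, a near copy of Tgtp1 with which it may share reads, was at 469 to 879 CPM in lean and 0.409 to 8.35 CPM in obese tumors. Igtp (log2 fold change -6.88), Gbp5 (-6.95), Gm12250 (-6.94), Ifi47 (-6.82) and Iigp1 (-6.79) were also among the 15 largest reductions.

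The antiviral effectors followed the same pattern. Each of the 27 tested members was lower (median -3.68), with no overlap between hosts. Among all tested genes, 14.3% were called lower and 14.8% lay apart in this direction. Zbp1, a sensor of Z-form nucleic acids, was at 90.1, 151, 92.4 and 99.7 CPM in lean and at 1.91, 2.19, 0.847 and 0.168 CPM in obese tumors (log2 fold change -6.43, SE 0.53, adjusted p = 5.15e-05, edgeR). Oas3, which makes the messenger that activates RNase L, was at 21.5, 30.0, 7.07 and 11.6 CPM in lean and at 0.130, 0.426, 0.276 and 0.0372 CPM in obese tumors (log2 fold change -6.32). Ifi44 (-5.84) and Oas2 (-5.70) were the next largest of the list.

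The largest difference of all belonged to Apol9a, an interferon-induced member of the apolipoprotein L family (gene ID 223672, chromosome 15 from 77403789 to 77411080). It was at 68.5, 126, 98.8 and 109 CPM in lean tumors and at 0.282, 0.344, 0.207 and 0.112 CPM in obese tumors, a 427-fold difference (log2 fold change -8.74, SE 0.30, adjusted p = 1.67e-06, edgeR). Apol9b, its near copy, differed by -8.14, and reads of the pair may have been split between them in counting. Batf2, a transcription factor of myeloid cells that interferon raises, was at 43.7 to 87.9 CPM in lean and at 0.168 to 1.35 CPM in obese tumors (log2 fold change -6.60, adjusted p = 4.11e-05).

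The promoters of 4 of these genes are shown because they hold, near the start site, letters that interferon-activated factors recognise. Windows run from 250 bases before to 50 bases after a RefSeq start site in GRCm38.p6, 5′ to 3′ on the gene's strand. Capitals mark the core of the interferon-stimulated response element (ISRE), searched as GAAANNGAAA on both strands, in the first 3 windows, and the gamma-activated site (GAS), searched as TTCNNNGAA, in that of Psmb8. Apol9a lies on the minus strand at chr15:77411031-77411330 and holds 2 overlapping ISRE matches, which begin 59 and 53 bases before the start site. Tgtp1 (minus strand, chr11:48992197-48992496) and Igtp (plus strand, chr11:58199306-58199605) have an ISRE match 77 and 34 bases before it, and Psmb8 (plus strand, chr17:34197945-34198244) a GAS match 97 bases before it. The windows of Tgtp1 and Igtp also hold 1 GAS match each, left in small letters. The windows of Psmb9, Ifi47 and Tap1 held neither.
Apol9a: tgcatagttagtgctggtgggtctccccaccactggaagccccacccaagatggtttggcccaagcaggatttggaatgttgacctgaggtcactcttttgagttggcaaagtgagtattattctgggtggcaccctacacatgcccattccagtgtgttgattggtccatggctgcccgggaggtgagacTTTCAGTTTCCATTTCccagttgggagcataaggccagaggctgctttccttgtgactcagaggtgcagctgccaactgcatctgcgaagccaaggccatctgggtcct
Tgtp1: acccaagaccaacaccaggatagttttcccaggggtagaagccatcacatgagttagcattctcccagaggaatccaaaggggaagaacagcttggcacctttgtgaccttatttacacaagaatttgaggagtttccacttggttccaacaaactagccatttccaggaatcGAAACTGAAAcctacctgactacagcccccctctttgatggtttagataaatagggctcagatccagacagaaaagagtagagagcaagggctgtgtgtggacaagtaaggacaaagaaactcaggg
Igtp: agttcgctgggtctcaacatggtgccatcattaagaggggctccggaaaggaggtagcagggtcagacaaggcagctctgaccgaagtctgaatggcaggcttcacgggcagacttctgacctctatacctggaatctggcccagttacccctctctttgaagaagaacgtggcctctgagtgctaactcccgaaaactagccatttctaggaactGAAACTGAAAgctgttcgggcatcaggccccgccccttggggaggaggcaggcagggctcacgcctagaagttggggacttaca
Psmb8: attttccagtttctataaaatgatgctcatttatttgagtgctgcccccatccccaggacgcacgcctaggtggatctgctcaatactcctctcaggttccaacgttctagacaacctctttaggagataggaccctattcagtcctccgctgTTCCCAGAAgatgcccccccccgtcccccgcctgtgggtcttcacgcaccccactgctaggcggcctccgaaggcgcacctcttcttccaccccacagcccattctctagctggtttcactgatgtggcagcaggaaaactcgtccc

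Of the 15 genes with the largest reductions, 11 have promoter windows in the table, and 8 of these 11 (72.7%) held an ISRE match in at least 1 window. Among all tested genes with a window, 443 of 11805 (3.75%) did, and 997 (8.45%) held a GAS match. Of the 120 genes with a window among those lower by at least 16-fold, 39 (32.5%) held an ISRE match, against 3.24% of the genes called higher in obese tumors. In the GTPases 10 of 11 genes held an ISRE match, in the antiviral effectors 14 of 22 and in MHC class II presentation 1 of 6. A GAS match was held by 6 of the 11 largest reductions with a window (54.5%) and by 19.2% of the genes lower by at least 16-fold. The same match was held by 7 of 11 GTPases, 5 of 22 antiviral effectors, 1 of 6 class II genes and 6.14% of the genes called higher. A match is a description of the letters in the window and was not tested as a site.

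Antigen presentation was low in obese tumors at each step of the class I route. All 19 tested genes were lower, with a median of -3.78, and no gene overlapped between hosts. Of all tested genes, 14.3% were called lower and 14.8% lay apart in this direction. Psmb8, a catalytic subunit of the immunoproteasome that cuts proteins into peptides (gene ID 16913, chromosome 17 from 34198195 to 34201454), was at 258, 367, 264 and 312 CPM in lean and 2.65, 4.68, 1.95 and 0.875 CPM in obese tumors (log2 fold change -6.90, SE 0.44, adjusted p = 1.33e-05, edgeR). Psmb9, its partner subunit, differed by -6.78 and Tap1, a subunit of the pump that carries peptides into the endoplasmic reticulum, by -6.27. Nlrc5, the activator of class I genes, was at 93.2, 230, 239 and 213 CPM in lean and at 4.49, 4.46, 1.42 and 0.819 CPM in obese tumors (log2 fold change -6.13, adjusted p = 9.83e-05). The heavy chain H2-D1 (-3.53, adjusted p = 1.89e-06) and the light chain B2m (-3.40, adjusted p = 1.89e-06) differed less in size than the peptide-processing genes. Cd274, which encodes the checkpoint ligand PD-L1, was at 42.6 to 103 CPM in lean and 4.47 to 7.81 CPM in obese tumors (log2 fold change -3.71).

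MHC class II presentation is a trait of dendritic cells, macrophages and B cells that interferon-gamma can also switch on elsewhere. Its median was -6.11, and all 9 tested genes were lower, against 14.3% of all tested genes. Ciita, the master activator of the class II genes, was at 31.7, 90.4, 68.5 and 88.4 CPM in lean and at 0.326, 1.36, 0.346 and 0.391 CPM in obese tumors (log2 fold change -6.86, SE 0.53, adjusted p = 3.6e-05, edgeR). H2-Aa was at 365, 643, 307 and 460 CPM in lean and at 3.39, 14.6, 2.71 and 1.77 CPM in obese tumors (log2 fold change -6.31, adjusted p = 0.000259). Obese tumor 2 was the highest obese tumor for both, and without it the log2 fold changes were -7.61 and -7.41.

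**Figure D2:**
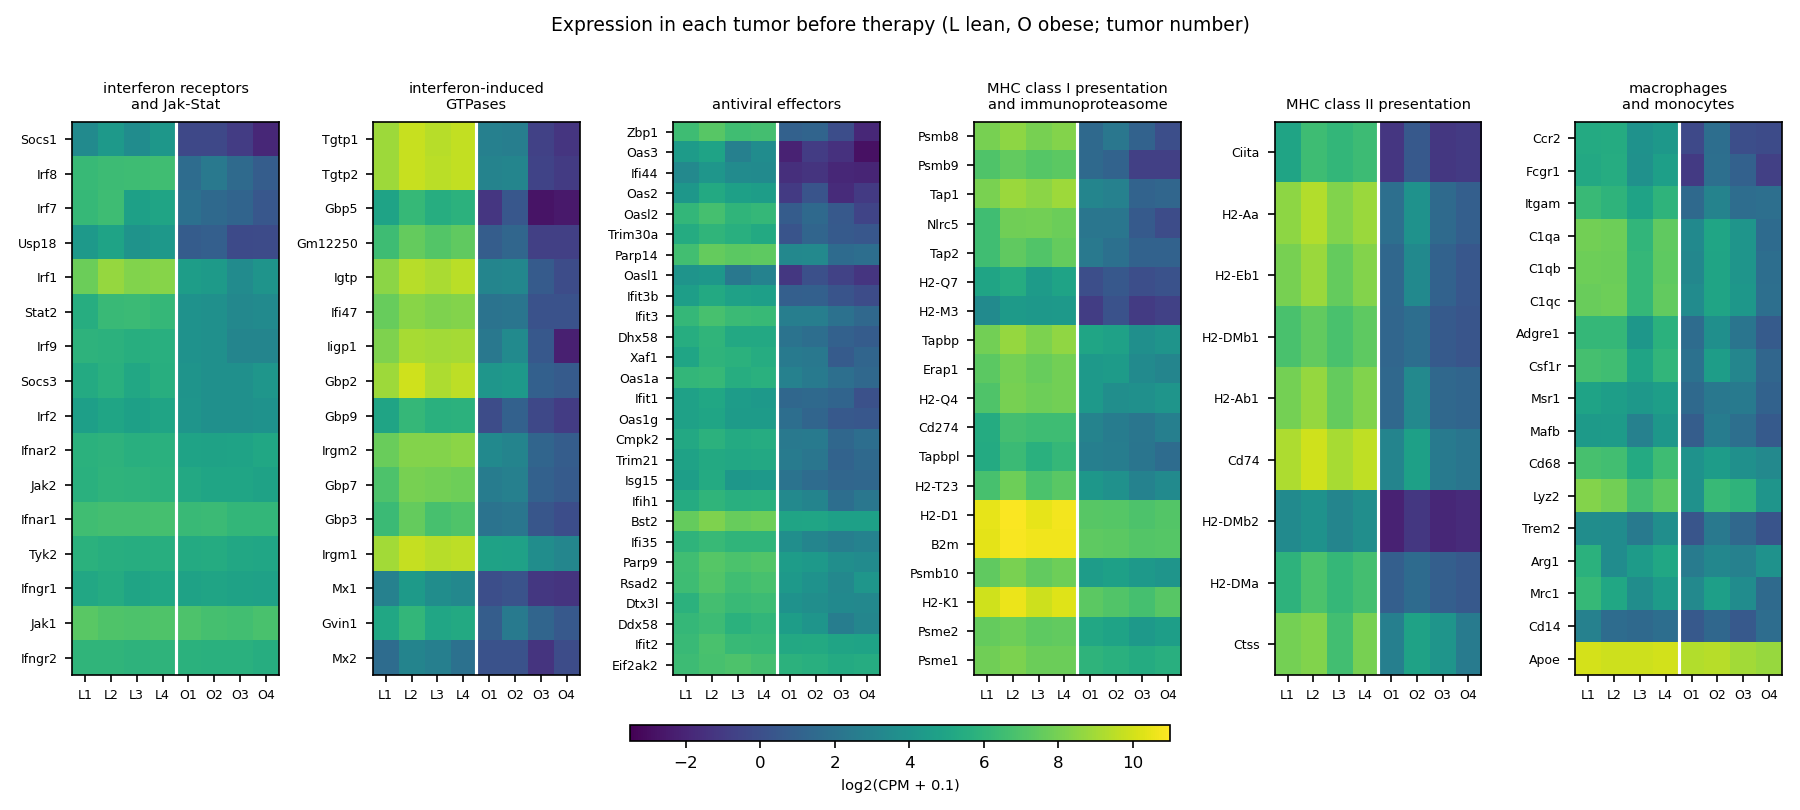
Rows are tested genes of 6 lists and columns the 8 tumors (L, lean; O, obese); colour gives log2(CPM + 0.1). Lean columns are brighter than obese columns in every GTPase, antiviral, class I and class II row, and among obese tumors O1 and O2 are brighter than O3 and O4 in 15 of the 16 GTPases.

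Of the 8 interferon-induced chemokines, 6 were lower in obese tumors, against 14.3% of all tested genes. Cxcl9, which attracts T cells through Cxcr3, was at 74.0, 179, 124 and 129 CPM in lean and at 2.32, 7.48, 1.0 and 0.149 CPM in obese tumors (log2 fold change -5.55, SE 0.81, adjusted p = 0.00121, edgeR). Ccl5 differed by -3.52, Ccl7 by -2.89 and Ccl2, which recruits monocytes, by -2.55. Cxcl11 (-1.09, adjusted p = 0.16) and Ccl8 (-2.52, adjusted p = 0.0518) did not pass the test.

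Markers of T and NK cells, which make interferon-gamma, were lower in obese tumors. Of 24 markers of T and NK cells, 22 had a count of 0 in at least 1 tumor and only Lck and Eomes were tested, both lower in obese tumors. Lck, a kinase of T cell receptor signaling, was at 10.5, 13, 10.3 and 12.6 CPM in lean and at 2.69, 2.82, 3.27 and 3.76 CPM in obese tumors (log2 fold change -1.89, adjusted p = 7.54e-05, edgeR), and so made up much of what the list held in obese tumors. With no exclusion of zero counts, 20 of the other 22 were lower at an adjusted p under 0.05 and 0 higher, against 9.31% of all genes lower in that fit. Cd3e, a chain of the T cell receptor complex, was counted 157, 229, 139 and 258 times in lean tumors and 0 times in each obese tumor. That is at least 224-fold higher in lean tumors when 3 counts over the obese group are taken as the limit. Gzmb, the granzyme of cytotoxic cells, was counted 741, 1286, 1439 and 1617 times in lean and 7, 0, 0 and 0 times in obese tumors (adjusted p = 5.27e-05, edgeR). Cd8a was counted 330, 815, 426 and 571 times against 11, 11, 12 and 0 times. The summed level of the 24 markers ranged from 88.5 to 153 CPM in lean and from 4.19 to 7.13 CPM in obese tumors, and 3 markers were at 0 in all obese tumors. Cd4 (counts of 65, 137, 38 and 100 against 0, 28, 4 and 0, adjusted p = 0.0814) and Foxp3, of regulatory T cells (13, 22, 54 and 100 against 7, 10, 6 and 0, adjusted p = 0.0597), did not pass.

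Myeloid markers were lower as well. Of 17 tested markers of macrophages and monocytes, 15 were lower (median -2.73), against 14.3% of all tested genes. The summed level over all 20 markers was 1474 to 2755 CPM in lean and 501 to 995 CPM in obese tumors. Adgre1, which encodes the macrophage antigen F4/80, was at 72.5, 70.8, 18.3 and 53.5 CPM in lean and at 2.95, 13.0, 4.28 and 1.51 CPM in obese tumors (log2 fold change -3.31, SE 0.66, adjusted p = 0.00589, edgeR). Ccr2, the receptor that brings monocytes into tissue, differed by -4.38, the Fc receptor Fcgr1 by -4.32 and the integrin Itgam by -3.77. The order of the lean tumors was not that of the GTPases: 12 of the 17 macrophage markers were highest in lean tumor 1 and 16 were lowest in lean tumor 3. Of the 14 tested complement genes 13 were lower (median -3.14), where 14.3% of all tested genes were. They were led by Cfb (-3.65), C1qa (-3.51), C1qb (-3.47) and C1qc (-3.42), the last 3 of which macrophages make. The dendritic cell genes Itgax (-5.02) and Ccr7 (-3.59) were lower. Tnf was at 1.96, 5.32, 2.44 and 3.74 CPM in lean and at 0.109, 0.365, 0.207 and 0.521 CPM in obese tumors (log2 fold change -3.47, adjusted p = 0.001). The macrophage markers were lower in the same host as the interferon genes but ordered the lean tumors differently from the GTPases. Not every list showed this contrast: 6 of the 9 class II genes were also lowest in lean tumor 3. Tnf was highest in lean tumor 2, as were 14 of the 16 GTPases. The part of the myeloid markers in the interferon result was not tested.

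Stroma was mixed. Of 15 fibroblast and pericyte genes 8 were lower (median -1.24), against 14.3% of all tested genes, but the spread within each host was wide. Of these 15, 4 lay apart between hosts in this direction, as did 14.8% of all tested genes. Col3a1, a fibrillar collagen, was at 1203, 800, 168 and 267 CPM in lean and at 27.4, 256, 96.7 and 66.8 CPM in obese tumors (log2 fold change -2.45, SE 0.76, adjusted p = 0.0409, edgeR), and the hosts overlapped. Pdgfra, a fibroblast receptor, did not pass (-1.91, adjusted p = 0.089). Of 15 endothelial genes 7 were lower and no tested one higher, against 14.3% and 11.7% of all tested genes. Among the lower ones were the vessel markers Kdr (-1.34, adjusted p = 0.00153, edgeR), Pecam1 (-1.14, adjusted p = 0.00314, edgeR), Plvap (-1.14) and Emcn (-0.89). The count of lower fibroblast genes was 3 without lean tumor 2 or obese tumor 3, 4 without obese tumor 4 and 5 without lean tumor 1 or obese tumor 1, and it ranged up to 10 over the alternatives, against 5 to 10 for endothelial genes.

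Genes of the melanocyte lineage, which B16F10 cells carry themselves, were lower by smaller amounts. Of 16 tested, 11 were lower and 0 higher (median -0.65), against 14.3% and 11.7% of all tested genes. These 11 did not overlap between hosts, where 14.8% of all tested genes lay apart in this direction. Trpm1, a channel whose gene hosts the microRNA Mir211, was at 698, 482, 614 and 532 CPM in lean and at 134, 124, 128 and 97.3 CPM in obese tumors (log2 fold change -2.27, SE 0.15, adjusted p = 1.41e-05, edgeR). Oca2 differed by -1.19, Gpr143 by -1.10 and Pmel, which builds the fibrils on which melanin is laid down, by -1.03 (adjusted p = 0.0033). Mitf, the transcription factor that drives these genes, was at 512, 522, 690 and 508 CPM in lean and at 707, 852, 513 and 413 CPM in obese tumors (0.15, adjusted p = 0.634), and Sox10 was at 473 to 520 against 503 to 706 CPM (0.26, adjusted p = 0.173). Both factors overlapped between hosts.

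Of the invasive, dedifferentiated melanoma genes 5 of 17 were lower and 0 higher, against 14.3% and 11.7% of all tested genes. Axl, a receptor tyrosine kinase that melanoma cells of low Mitf activity and also myeloid cells express, was at 178, 244, 157 and 257 CPM in lean and at 9.29, 11.7, 13.3 and 12.9 CPM in obese tumors (log2 fold change -4.15, SE 0.20, adjusted p = 4.32e-06, edgeR). Its 4 obese values lay close together, and which cells expressed it was not tested. Tgfbi differed by -4.05, Tnc by -2.13 and the factor Zeb1 by -1.24.

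**Figure D3:**
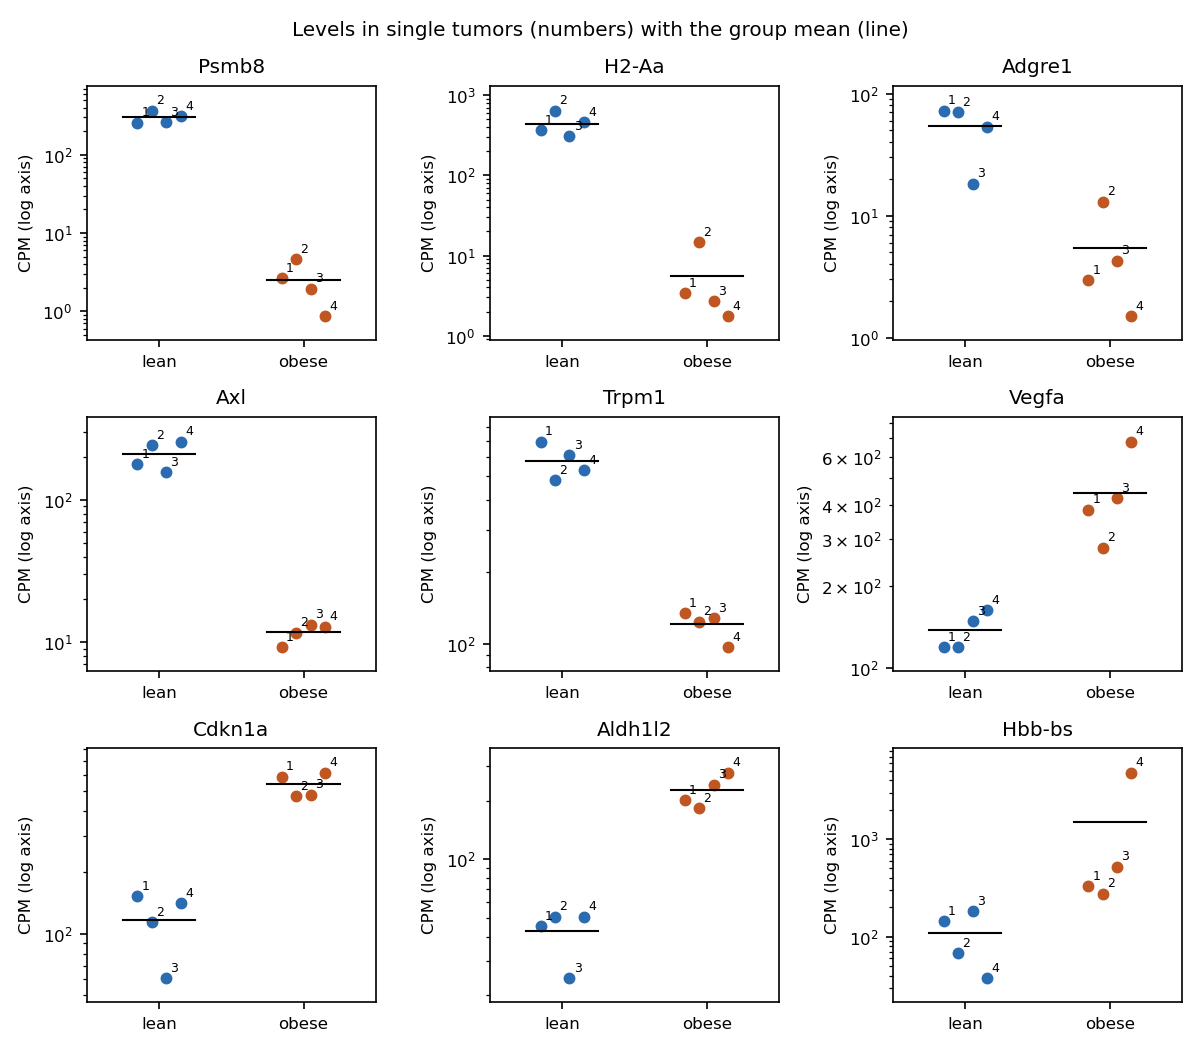
CPM of 9 genes in each tumor on log axes; points are tumors with their number, and lines are group means. Psmb8, H2-Aa, Adgre1, Axl and Trpm1 lie lower and Vegfa, Cdkn1a, Aldh1l2 and Hbb-bs higher in all 4 obese tumors, and obese tumor 4 stands alone in Hbb-bs at 4804 CPM.

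Genes that hypoxia raises were higher in obese tumors. Of 26 tested factors and targets of the hypoxia pathway, 18 were higher and 2 lower, against 11.7% and 14.3% of all tested genes. The median was 0.92. Without obese tumor 4, 11 were higher and the median was 0.72. Vegfa, the main growth factor of blood vessels, was at 120, 120, 149 and 164 CPM in lean and at 383, 278, 423 and 681 CPM in obese tumors, a 3.19-fold difference (log2 fold change 1.67, SE 0.25, adjusted p = 0.00134, edgeR). Ankrd37, a short target of Hif1a, was at 5.73, 5.72, 6.16 and 7.03 CPM in lean and at 26.0, 18.8, 33.1 and 47 CPM in obese tumors (log2 fold change 2.34, adjusted p = 0.000235). All 4 obese tumors lay above the lean ones for both genes, obese tumor 4 being the highest and obese tumor 2 the lowest. Without obese tumor 4 the log2 fold changes were 1.39 and 2.08. Ero1l, an oxidase of protein folding (1.65), and Ddit4, an inhibitor of mTORC1 (1.60), followed, and Bnip3 (1.19), Higd1a (1.10), Mxi1 (1.10) and Car9 (0.84) were higher as well.

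Hif1a itself, which is controlled mainly through its protein, was at 323, 258, 299 and 299 CPM in lean and at 397, 341, 355 and 347 CPM in obese tumors (log2 fold change 0.29, SE 0.095, adjusted p = 0.0499, edgeR). This call was lost in 11 of 20 alternatives. Its relative Epas1 was at 15.9 to 26.2 CPM in lean and 14.3 to 18.7 CPM in obese tumors (-0.48, adjusted p = 0.0524). The 2 lower members were Pfkfb3 (-0.51) and Pfkfb4 (-0.66), kinases that raise glycolytic flux. The promoter of Ankrd37 is shown with the core letters of the hypoxia response element, ACGTG on either strand, in capitals (minus strand, chr8:45999801-46000100), with 2 matches that begin 241 and 6 bases before the start site. These letters are common: 24.7% of the windows of tested genes and 18 of the 32 windows of the hypoxia list (56.2%) held them.
Ankrd37: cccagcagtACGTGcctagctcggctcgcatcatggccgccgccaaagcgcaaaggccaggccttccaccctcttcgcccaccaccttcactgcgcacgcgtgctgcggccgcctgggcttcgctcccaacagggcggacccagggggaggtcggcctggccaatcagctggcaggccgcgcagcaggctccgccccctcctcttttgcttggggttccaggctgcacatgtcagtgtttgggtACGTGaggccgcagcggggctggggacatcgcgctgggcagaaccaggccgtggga

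Glycolysis, which shares Slc2a1 with the hypoxia list, moved the same way by less. Of 19 genes 13 were higher and 0 lower (median 0.61), against 11.7% and 14.3% of all tested genes. Aldoc was at 74.0, 59.9, 71.1 and 68.4 CPM in lean and at 214, 142, 115 and 154 CPM in obese tumors (log2 fold change 1.20, SE 0.17, adjusted p = 0.00105, edgeR), followed by Gpi1 (1.0), Pfkm (0.81) and Gapdh (0.75, adjusted p = 0.012). Gapdh was at 4062 to 5770 CPM in lean and 6545 to 9003 CPM in obese tumors. Another common reference gene, Actb, was at 2302 to 2617 CPM in lean and 1662 to 1940 CPM in obese tumors (-0.44, adjusted p = 0.0146).

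Small, even rises marked the nuclear genes of the respiratory chain and the ribosome. Among all tested genes, 11.7% were called higher. Of 44 nuclear-encoded genes of oxidative phosphorylation 37 were higher and 0 lower (median 0.45, range 0.13 to 0.81), led by the cytochrome oxidase subunits Cox7b (0.81), Cox6c (0.71) and Cox6a1 (0.69) and by Uqcrq (0.65). Of the 13 mitochondrially encoded genes 0 were called by edgeR, and 0 had an unadjusted p below 0.05 (median log2 fold change -0.01). The same count of 0 was found with DESeq2, limma and every other alternative run. Of 52 genes of cytosolic ribosomal proteins 34 were higher and 0 lower (median 0.42), with Rpl13a (0.64), Rpl12 (0.64), Rpl38 (0.60) and Rps19 (0.60) in front. Some of these genes overlap small nucleolar RNA genes or have processed pseudogenes that can take up their reads. With TPM values the medians were 0.33 and 0.30 and stayed positive, and the number of ribosomal genes called ranged from 18 (without lean tumor 4, without obese tumor 4 or with a replicate block) to 50. It was 19 without obese tumor 3 and 21 without lean tumor 3.

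**Figure D4:**
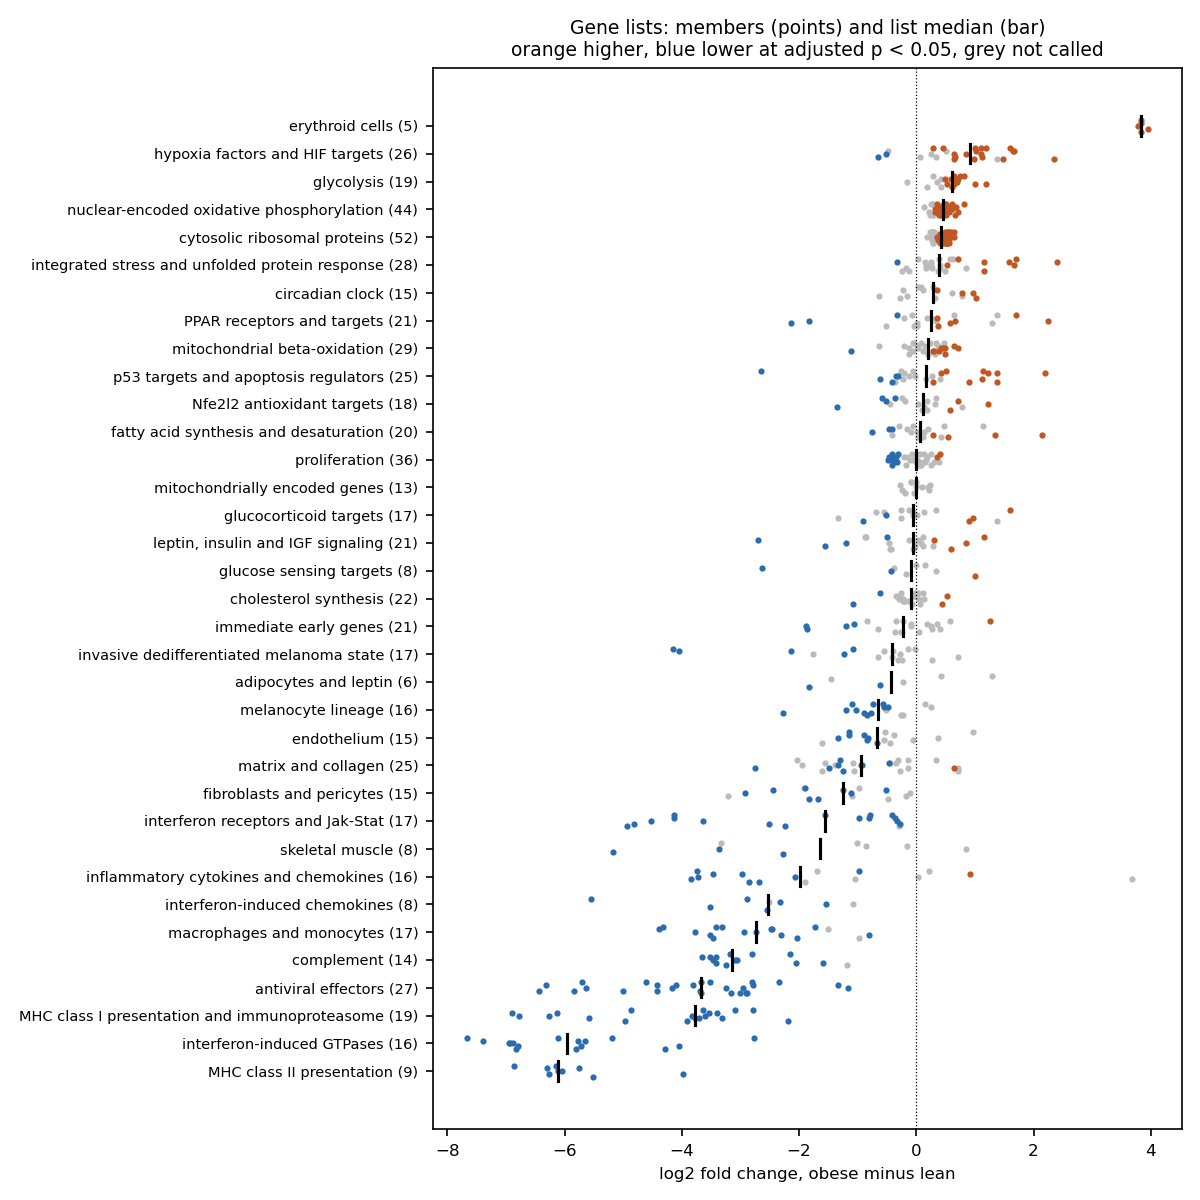
Each row is a gene list with at least 5 tested members (number in brackets), points are the log2 fold changes of its members (obese minus lean) and black bars the list medians. Medians run from -6.11 for MHC class II presentation to 3.84 for erythroid cells, and the mitochondrially encoded genes sit at -0.01 with 0 members called.

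Fatty acid oxidation and its regulators, the theme of the study, differed modestly at this stage. Of 29 genes of mitochondrial beta-oxidation 9 were higher and 1 lower (median 0.20), against 11.7% and 14.3% of all tested genes. The higher genes numbered 5 without obese tumor 4, 6 without lean tumor 4 and 14 without lean tumor 1, and the median was 0.10 with TPM values. The largest rises were those of Eci2 (0.72, adjusted p = 0.000392), Etfdh (0.64) and Etfa (0.49), and the lower gene was Acsl5 (-1.11, adjusted p = 0.000185). Cpt1a, the gate of fatty acids into mitochondria, was at 46.3, 45.4, 38.9 and 52.4 CPM in lean and at 32.1, 48.0, 56.3 and 42.2 CPM in obese tumors (log2 fold change -0.03, SE 0.16, adjusted p = 0.893, edgeR). Ppara, the nuclear receptor that raises these genes, was low in both hosts, at 0.594, 0.374, 0.497 and 0.685 CPM in lean and 0.651, 0.790, 0.933 and 0.968 CPM in obese tumors (0.64, adjusted p = 0.0905).

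Among 21 tested PPAR receptors and targets, 6 were higher and 3 lower, where 11.7% and 14.3% of all tested genes were. The higher genes numbered 3 without lean tumor 4, obese tumor 3 or obese tumor 4, with a replicate block and with TPM values. Fabp3, a fatty acid carrier, was at 1.33, 2.62, 1.28 and 1.99 CPM in lean and at 3.84, 6.26, 13.4 and 10.7 CPM in obese tumors (log2 fold change 2.24, SE 0.41, adjusted p = 0.00385, edgeR), and Vldlr, a lipoprotein receptor, differed by 1.70. Ucp2, a mitochondrial carrier, was lower by -2.14 and Pparg, the receptor of fat cells and macrophages, by -1.83. Fgf21, a hormone of fasting, fell outside the tested genes through counts of 0. It was counted 0, 6, 0 and 0 times in lean and 86, 50, 35 and 29 times in obese tumors. With no exclusion of zero counts its adjusted p was 0.00683 (edgeR), and 6.32% of all genes were called higher in that fit.

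Genes of lipid synthesis were split, where 11.7% of all tested genes were called higher and 14.3% lower. Of 20 genes of fatty acid synthesis 4 were higher and 3 lower (median 0.07, negative with TPM values at -0.03), with Dgat2, the last step of triglyceride synthesis (2.14, adjusted p = 0.00142), and Me1, which supplies NADPH (1.34, adjusted p = 0.000557), at one end and Elovl5 (-0.76, adjusted p = 0.0001) at the other. The lower ones numbered 1 without lean tumor 2, lean tumor 4, obese tumor 3 or obese tumor 4. Of 22 genes of cholesterol synthesis 2 were higher and 2 lower, and 15 log2 fold changes were negative. Without obese tumor 1 the counts were 1 higher and 8 lower, and with TPM values 0 higher and 4 lower. The regulators Srebf1 (0.12, adjusted p = 0.576) and Srebf2 (0.11, adjusted p = 0.506) did not pass.

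Genes of leptin, insulin and IGF signaling were split, with 4 of 21 higher and 4 lower (11.7% and 14.3% of all tested genes were). The higher ones numbered 1 without lean tumor 4 or obese tumor 4, and 2 without lean tumor 2, obese tumor 1 or obese tumor 3. Lep, which the hosts lack in functional form, cannot check the label, because the ob allele still gives RNA. It was counted 16, 18, 0 and 2 times in lean tumors and 6, 537, 65 and 8 times in obese tumors. Obese tumor 2 also held the highest counts of the fat cell genes Plin1 (259), Cidec (542) and Adipoq (266). Of the 6 tested fat cell genes 2 were lower and 0 higher (median -0.43), and without obese tumor 2, 4 were lower (median -0.76). The 2 lower ones were Pnpla2 and Pparg, which is also a receptor of macrophages. The summed level of all 15 listed fat cell genes overlapped between hosts, at 272 to 343 CPM in lean and 255 to 587 CPM in obese tumors. Whether the tumors differed in fat cell content was not tested. Lepr, the leptin receptor, was at 0.612, 0.732, 0.930 and 0.585 CPM in lean and 0.0868, 0.385, 0.795 and 0.279 CPM in obese tumors (log2 fold change -0.87, SE 0.49, adjusted p = 0.227, edgeR), and Insr did not pass either (0.11, adjusted p = 0.624). Socs3, a target and inhibitor of Stat3 signaling, was lower at -1.56 (adjusted p = 6.36e-05).

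Several targets of p53 were higher in obese tumors. Of 25 tested p53 targets and apoptosis regulators 10 were higher and 5 lower (median 0.17), against 11.7% and 14.3% of all tested genes. Cdkn1a, which encodes the cell cycle inhibitor p21, was at 153, 114, 61.0 and 141 CPM in lean and at 589, 474, 481 and 616 CPM in obese tumors, a 4.60-fold difference (log2 fold change 2.20, SE 0.26, adjusted p = 0.000345, edgeR). Phlda3, an inhibitor of Akt, was at 51.9, 47.2, 22.3 and 43.2 CPM against 106, 109, 108 and 106 CPM (1.38, adjusted p = 0.00172), and Bbc3, the death-promoting protein Puma, at 4.35, 7.19, 5.26 and 6.23 CPM against 15.1, 12.4, 14.3 and 18.2 CPM (1.38, adjusted p = 0.000802). Ccng1 (1.12), Zmat3 (0.90), Trp53inp1 (1.22), Eda2r (1.15) and Bax (0.50) were higher too. Mdm2 (0.26, adjusted p = 0.0818), Sesn1 (-0.02) and Btg2 (-0.36) did not pass, and Trp53 itself was at 99.7 to 115 CPM in lean and 101 to 108 CPM in obese tumors (-0.05, adjusted p = 0.663).

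Among the lower members were the death receptor Fas (-2.66, adjusted p = 0.0115), Bcl2l11 (-0.62), Casp8 (-0.42), Mcl1 (-0.34) and Casp2. Casp2, an initiator caspase that the study followed, was at 68.7, 77.7, 84.9 and 74.8 CPM in lean and at 58.3, 65.9, 59.8 and 63.4 CPM in obese tumors (log2 fold change -0.31, SE 0.082, adjusted p = 0.0224, edgeR). Naa10, an acetyltransferase, was at 49.1, 45.6, 38.1 and 44.2 CPM against 53.7, 50.8, 54.2 and 55.9 CPM (0.28, adjusted p = 0.0415). Neither gene overlapped between hosts, and the call was lost in 6 of 20 alternatives for Casp2 and in 11 of 20 for Naa10.

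Of 28 tested genes of the integrated stress and unfolded protein response, 8 were higher and 1 lower (11.7% and 14.3% of all tested genes). The median was 0.39. The higher ones numbered 5 without lean tumor 4, obese tumor 3 or obese tumor 4 and with a replicate block. Aldh1l2, a mitochondrial enzyme of folate metabolism that Atf4 raises, was at 45.2, 50.7, 24.6 and 50.7 CPM in lean and at 202, 184, 242 and 279 CPM in obese tumors (log2 fold change 2.41, SE 0.23, adjusted p = 0.000119, edgeR). Nupr1 (1.67), Ppp1r15a (1.57) and Ddit3 (1.15) were higher, and Atf4 itself did not pass (0.62, adjusted p = 0.0645). The chaperones Hspa5 (0.25, adjusted p = 0.158) and Hsp90b1 (0.16, adjusted p = 0.263), of the unfolded protein branch, did not pass.

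Proliferation genes had a median of 0.00, with 2 of 36 higher and 10 lower (11.7% and 14.3% of all tested genes were). The lower ones included Cdc6 and Mcm6, which license replication origins (-0.47, adjusted p = 0.00201, and -0.41), the factor E2f8 (-0.48) and the G1 cyclin Ccnd1 (-0.41, lost in 8 of 20 alternatives), and the higher ones were Ube2c (0.41) and Ccnb2 (0.36), which act in mitosis. Without lean tumor 2, lean tumor 4 or obese tumor 1, 6 were lower. Mki67 was at 274, 354, 493 and 358 CPM in lean and 326, 404, 326 and 349 CPM in obese tumors (-0.08, adjusted p = 0.769). Of 15 clock genes 4 were higher and 0 lower, among them Per1 (0.97), Dbp (1.03) and Nfil3 (0.78, lost in 13 of 20 alternatives), and 2 were higher without lean tumor 2, 3 or 4 or obese tumor 1 or 4. Of 21 immediate early genes 4 were lower, led by Egr2 (-1.89) and Egr3 (-1.86), and 1, Ier3 (1.26), was higher. The time of day at which tumors were taken is not given in the sources used here.

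The largest rises in obese tumors were a varied group. Akr1b7, an aldo-keto reductase (gene ID 11997, chromosome 6 from 34412362 to 34423137), was at 0.192, 0.406, 0.0962 and 0.10 CPM in lean and at 5.88, 2.72, 4.25 and 3.18 CPM in obese tumors (log2 fold change 4.32, SE 0.48, adjusted p = 0.000282, edgeR). Cdsn, which encodes corneodesmosin of the outer skin, was at 0.594, 1.85, 0.289 and 0.518 CPM against 24.0, 12.5, 10.1 and 15.6 CPM (4.25, adjusted p = 0.000629). Hoxb9, a homeobox factor of body patterning, was at 2.06, 1.95, 1.27 and 1.89 CPM against 22.6, 13.9, 30.3 and 38.9 CPM (3.88, adjusted p = 5.27e-05). Fam81a (3.84), the collagen chain Col9a1 (3.91), the flippase Atp10b (3.82), D630003M21Rik (3.65), Gipr, the receptor of an incretin hormone (3.61), and Stac2 (3.30) made up the rest of these 15 genes with S100a9 and 5 red cell genes.

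The red cell genes were far higher in obese tumor 4 than in the rest, and their calls depended on the method. All 5 were called higher by edgeR, where 11.7% of all tested genes were. The number was 0 by DESeq2 or with a replicate block, 2 without lean tumor 4 and 3 without lean tumor 2. Hbb-bs, a beta globin, was at 145, 67.5, 182 and 37.9 CPM in lean and at 332, 277, 522 and 4804 CPM in obese tumors (log2 fold change 3.78, SE 1.01, adjusted p = 0.0225, edgeR). Without obese tumor 4 it differed by 1.81 (adjusted p = 0.0337), and Hba-a1, Hba-a2, Hbb-bt and the heme enzyme Alas2 by 1.91 to 2.08. The copies Hba-a1 and Hba-a2, and Hbb-bs and Hbb-bt, may share reads. S100a9, a protein of neutrophils, was at 0.130 to 0.241 CPM in lean and at 0.499, 1.03, 0.518 and 12.7 CPM in obese tumors, and differed by 2.0 without obese tumor 4 (4.43 with it). Of the other neutrophil genes Csf3r was lower (-2.57, adjusted p = 0.0366), with hosts that overlapped and a call lost in 8 of 19 alternatives, and S100a8 was counted 14, 14, 0 and 16 times in lean and 14, 15, 13 and 233 times in obese tumors.

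Finally, the 30 largest differences were followed into the tumors taken after ETS. These tumors differ from those above in treatment and may differ in time, because the labels do not say when the controls were taken. The 30 genes were chosen by their differences before therapy, which enter the interaction. The choice therefore favors a smaller difference after ETS, and the counts are a description. For all 15 reduced genes the host difference before therapy was unlike that after ETS in edgeR's interaction test (adjusted p below 0.05; 16% of all genes did), with interactions from -8.05 to -6.14. After ETS their log2 fold changes ranged from -1.11 to 1.76. Of the 15, 1, Apol9b, passed the test and was lower in obese tumors (5.21% of all genes differed between hosts then). Apol9a, the largest reduction, had means of 100 CPM in lean and 0.236 CPM in obese tumors before therapy, and 5.96 and 2.95 CPM after ETS. Oas3, with the largest interaction, had means of 17.6 and 0.217 CPM before therapy, and 1.88 and 6.37 CPM after ETS. The change within a host was not tested. Of the 15 raised genes 3, Col9a1, Fam81a and Atp10b, had an interaction that passed. After ETS all 15 had positive log2 fold changes and 8 passed the test. The 8 were Akr1b7, Cdsn, Hoxb9 and Stac2, and also S100a9, Hba-a1, Hba-a2 and Hbb-bs. For the 9 genes other than S100a9 and the red cell genes the log2 fold changes ran from 0.28 to 3.09. For those 6 no fold is given, because lean tumors after ETS were at 0 to 0.0701 CPM. The host differences before and after ETS come from separate sets of 8 tumors.

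**Figure D5:**
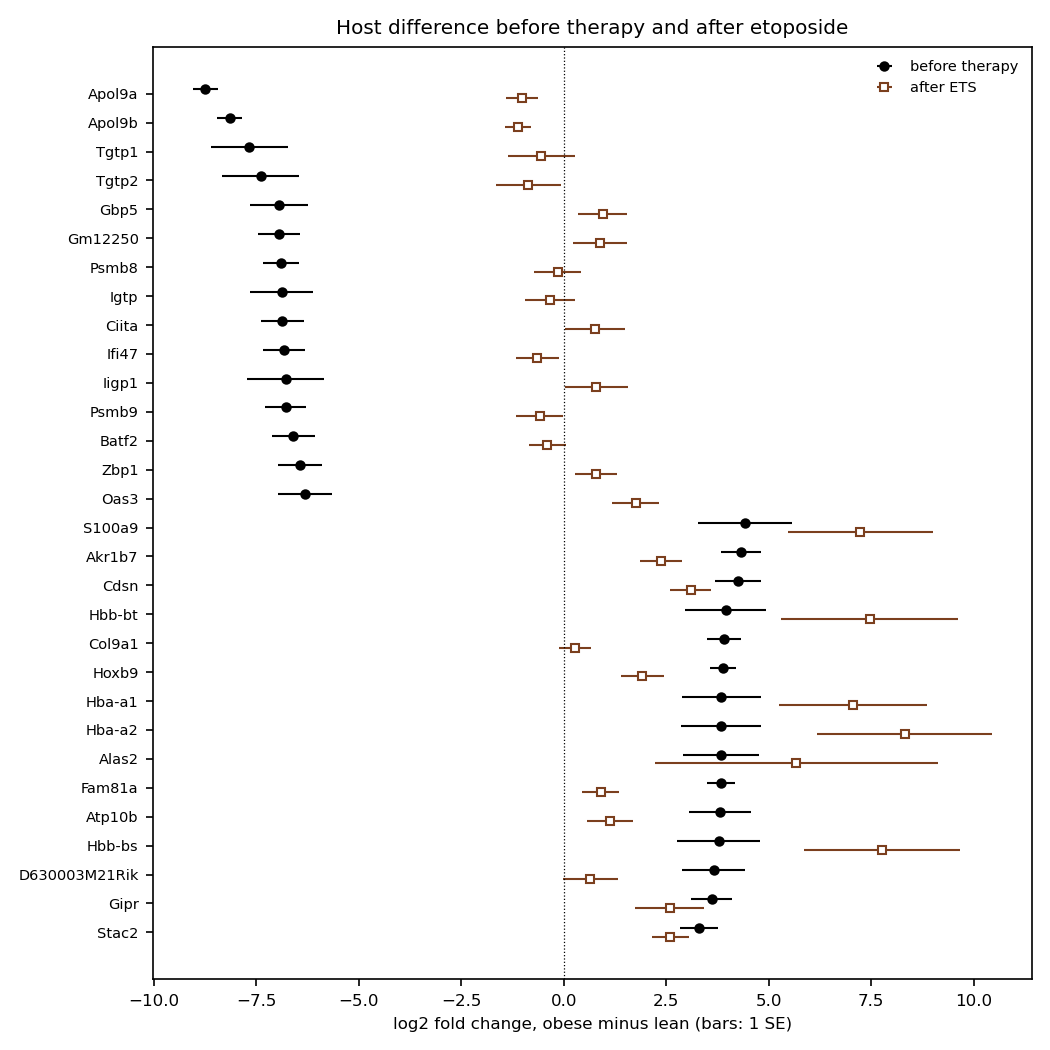
Log2 fold changes (obese minus lean) of the 15 largest reductions and 15 largest rises before therapy (filled circles) and after ETS (open squares), with bars of 1 SE. The reductions lie between -8.74 and -6.32 before therapy and between -1.11 and 1.76 after ETS. For S100a9 and the red cell genes the squares are fitted against lean levels at or near 0 and give no size.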

How the data were processed

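RNA of 8 tumors taken before therapy (4 lean, 4 obese) was sequenced from TruSeq Stranded mRNA libraries. The authors aligned reads to mm10 with HISAT2 2.1.0 and quantified genes with StringTie 2.1.3b, and deposited read counts per gene, not normalized. The deposited table also holds FPKM values, which were not used here, and TPM values, which served as an alternative and for levels. Whether counting used the strand is not given in the sources used here, so genes overlapping others are uncertain.

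Genes with a count of 0 in any of the 8 libraries were excluded (28864 of 45777). Counts were scaled by TMM and tested with edgeR 4.0.16 in R 4.3.3 (quasi-likelihood, Benjamini-Hochberg adjustment over all 16913 genes, threshold 0.05). The interaction used all 16 libraries. Library totals ran from 47199949 to 61391684 counts, and intervals or limits from counts cover counting error only. Alternatives included DESeq2 1.42.0, limma 3.58.1, other filters and leaving out each tumor, and the code was tested on simulated data.

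Genes were named by rule: the 15 largest changes in each direction with an adjusted p below 0.05, a mean of at least 1 CPM and no overlap between hosts, up to 4 called members with the largest change per list, genes that define a list, and genes the study follows. Other members were named after their values were seen, to fill out a list's count: the genes with counts of 0 and B2m, H2-D1, Cd274, Ccl8, Cxcl11, Bnip3, Car9, Higd1a, Mxi1, Pfkfb3, Pfkfb4, Bax, Bcl2l11, Casp8, Mcl1, Mdm2, Sesn1, Btg2, Ccng1, Zmat3, Eda2r, Ddit3, Hspa5, Hsp90b1, Ccnb2 and Ube2c. The comparison and all lists were chosen with earlier results of these data known. Promoter windows are from RefSeq on GRCm38.p6. A few genes are not reported here.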

Additional observations from a re-analysis of the deposited data

Results flagged for a closer look

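Over the named genes, 22 of 354 groups of 4 tumors (6.21%) held a tumor that stood far from the other 3, where chance gives about 1 in 20. Obese tumor 4 was high in the red cell and neutrophil genes. These were Hbb-bs (obese tumor 4) at 4804 CPM against 277 to 522 CPM in the other 3, Hbb-bt (obese tumor 4) at 2267 CPM against 149 to 247 CPM in the other 3 and Hba-a1 (obese tumor 4) at 3641 CPM against 246 to 392 CPM in the other 3. The same tumor was high for Hba-a2 (obese tumor 4) at 2893 CPM against 186 to 305 CPM in the other 3, Alas2 (obese tumor 4) at 157 CPM against 13.4 to 17.3 CPM in the other 3 and S100a9 (obese tumor 4) at 12.7 CPM against 0.499 to 1.03 CPM in the other 3. It was also the highest for Klf10 (obese tumor 4) at 48.3 CPM against 36.2 to 37.9 CPM in the other 3 and Ifnar2 (obese tumor 4) at 34.8 CPM against 28.6 to 29.6 CPM in the other 3.

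Obese tumor 2 was high in genes of antigen-presenting and myeloid cells. These were Ciita (obese tumor 2) at 1.36 CPM against 0.326 to 0.391 CPM in the other 3, H2-Aa (obese tumor 2) at 14.6 CPM against 1.77 to 3.39 CPM in the other 3 and H2-Eb1 (obese tumor 2) at 10.2 CPM against 1.25 to 2.43 CPM in the other 3. It was also high for Ccr2 (obese tumor 2) at 3.2 CPM against 0.716 to 0.898 CPM in the other 3, Itgam (obese tumor 2) at 7.96 CPM against 2.67 to 3.31 CPM in the other 3 and Cfb (obese tumor 2) at 12.3 CPM against 2.08 to 3.59 CPM in the other 3. Every one of these 6 values lay below those of all 4 lean tumors.

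Among lean tumors, tumor 1 stood apart for Iigp1 (lean tumor 1) at 292 CPM against 518 to 545 CPM in the other 3, Gapdh (lean tumor 1) at 5770 CPM against 4062 to 4256 CPM in the other 3 and Etfa (lean tumor 1) at 92.5 CPM against 78.8 to 79.8 CPM in the other 3. Tumor 2 stood apart for Zbp1 (lean tumor 2) at 151 CPM against 90.1 to 99.7 CPM in the other 3 and Sfn (lean tumor 2) at 11.5 CPM against 2.05 to 3.11 CPM in the other 3. Tumor 3 stood apart for Kit (lean tumor 3) at 27.7 CPM against 18.8 to 20.3 CPM in the other 3, Tnc (lean tumor 3) at 29.2 CPM against 64 to 69.4 CPM in the other 3 and Mitf (lean tumor 3) at 690 CPM against 508 to 522 CPM in the other 3.

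The host difference before therapy minus that after ETS passed edgeR's interaction test for 18 of the 30 genes with the largest changes. These genes were chosen by their differences before therapy, which enter the interaction, so the choice favors this outcome and the values are a description. On the log2 scale the interaction was -8.05 for Oas3, -7.85 for Gbp5, -7.79 for Gm12250, -7.69 for Apol9a, -7.59 for Ciita and -7.54 for Iigp1. It was -7.17 for Zbp1, -7.08 for Tgtp1, -7.00 for Apol9b, -6.71 for Psmb8, -6.51 for Igtp and -6.50 for Tgtp2. It was -6.16 for Psmb9, -6.16 for Batf2 and -6.14 for Ifi47. The 3 genes with a positive interaction were Col9a1 (3.65), Fam81a (2.95) and Atp10b (2.73), which were less different between hosts after ETS.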

How the results depend on the processing

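Over 20 alternatives, 129 of the 177 named genes kept their direction and their side of the threshold. Another 6, none of them called (Cpt1a, Insr, Mitf, Mki67, Srebf1 and Srebf2), changed sign around 0. Of the rest, 37 lost the call in at least 1 alternative, 5 gained it, and 0 called genes reversed. The count of 2051 genes at 2-fold became 1046 with log2(TPM + 1) (178 higher and 868 lower) and 3341 with no exclusion of zero counts (2501 lower). Genes at 2-fold higher numbered 379 with log2(TPM + 0.1) and 368 among genes with a mean of at least 1 CPM. The filters change which genes are tested, and for TPM the cause was not tested. With TPM the share of called genes that were higher was 31.8% to 32.4%.

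Leaving out 1 tumor gave 3097 to 4858 called genes, of which 1247 to 2263 were higher and 1834 to 2595 lower. Without obese tumor 4 the higher genes fell from 1972 to 1247, and without lean tumor 4 to 1263. At 2-fold the range was 1948 to 2240. The interaction was called for 2026 to 3180 genes, against 2712. Replicate numbers did not pair the tumors (correlations of same-numbered tumors from -0.027 to 0.258), and a replicate block gave 3873 called genes (1655 higher, 2218 lower) and 3107 interactions. The B and plasma cell list had no member at a mean of at least 1 CPM, and the erythroid list none without a 0 in 16 libraries, so neither gave a value there.

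The low levels of obese tumors in the most reduced genes rest on few counts. Apol9a, for example, had 48 counts over the 4 obese tumors.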

Other observations

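Of 1440 tested pseudogenes 188 were higher and 11 lower in obese tumors, with a median log2 fold change of 0.30, whereas protein-coding genes split into 1640 higher and 2277 lower and long non-coding RNA genes into 113 and 107. Pseudogenes share sequence with their parent genes and reads shared by both are split in counting in a way not given in the sources used here.

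Of the 9501 genes with a count of 0 in some tumor that were fitted with no exclusion, 512 were called, 54 higher and 458 lower in obese tumors. The genes left out by the zero rule include the GTPase Gbp4, at 10345 to 30053 counts in lean tumors.

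Muscle RNA was uneven among lean tumors. The summed level of 18 skeletal muscle genes was 12.8 to 331 CPM in lean tumors, highest in tumor 2, and lean tumor 4 also held more than tumors 1 and 3 (Atp2a1 at 41.5 CPM in tumor 2, 8.85 CPM in tumor 4, and 1.07 and 0.625 CPM in tumors 1 and 3). The sum was 20.3 to 33.3 CPM in obese tumors. The calcium pump Atp2a1 was lower in obese tumors by -5.17, and by -3.28 without lean tumor 2, whereas Actn3 (adjusted p = 0.102) and Casq1 (adjusted p = 0.109) lost their call without it.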
